A study of Mus musculus with 6 samples.

Results

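The genes of cholesterol and fatty acid synthesis were followed in RNA from mouse lung, in 3 libraries labelled LPS and 3 labelled saline. The members were the rows whose gene symbol is among 34 named genes, which were picked by pathway, with no value in the rule but with earlier results of these data known, and all 34 were found among the 23183 genes of the tables. They fall into a sterol branch of 23 genes and a fatty acid branch of 11 genes. LPS is lipopolysaccharide, the Gram-negative cell wall component used to provoke acute lung inflammation, and both agents were instilled into the trachea of mice of C57BL/6 background. All titles name wild-type mice, and the genotype field names wild type for the 3 saline libraries. That field gives LCN2-/- for LPS 1 and LPS 2 and LCN4-/- for LPS 3, against their titles. Taken at its word, the field would make genotype inseparable from treatment, so that effects of the pair cannot be told apart. Age, dose and time after instillation were not given in the sources used here. No label states that each library is a different mouse, and the p-values therefore reflect library-to-library spread, which may be technical.

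Cholesterol is made from acetyl-CoA through mevalonate, the isoprenoid diphosphates, squalene and lanosterol, and saturated and monounsaturated fatty acids are made from the same acetyl-CoA by carboxylation, chain assembly, elongation and desaturation. Most of these enzymes are transcribed under the membrane-bound SREBP factors encoded by Srebf1 and Srebf2, which the INSIG proteins hold back in the endoplasmic reticulum when sterols are plentiful. In the lung, alveolar type 2 cells make fatty acids for the phospholipids of surfactant, and lipid-storing cells and macrophages also use these pathways.

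RefSeq promoters (GRCm38.p6, the assembly known as mm10; 250 bases before to 50 after each transcript start) were in the table used for 28 of the 34 members, with 38 starts, and not for Fdps, Fdft1, Sqle, Stard4, Scd1 or Scd2. They are shown for the only one of these 28 members with a match to a sterol regulatory element form (Hmgcs1), for the sterol enzyme gene with the highest increase (Cyp51), for a sterol enzyme gene that fell (Tm7sf2), for the largest decrease (Fasn) and for the only fatty acid member that rose (Elovl6). Each is written along its gene's strand, with matches on either strand to TCACNCCAC, a sterol regulatory element form, or to CCAAT, the motif of the factor NF-Y that works beside SREBP factors, in capitals.
Hmgcs1, chr13:119690101-119690400, plus strand: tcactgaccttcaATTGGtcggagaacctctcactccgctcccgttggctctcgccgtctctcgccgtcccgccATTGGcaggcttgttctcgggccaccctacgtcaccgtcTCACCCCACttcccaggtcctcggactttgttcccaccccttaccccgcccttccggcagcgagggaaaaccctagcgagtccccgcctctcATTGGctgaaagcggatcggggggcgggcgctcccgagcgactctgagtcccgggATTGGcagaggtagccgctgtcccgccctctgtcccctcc
Cyp51, chr5:4104648-4104947, minus strand: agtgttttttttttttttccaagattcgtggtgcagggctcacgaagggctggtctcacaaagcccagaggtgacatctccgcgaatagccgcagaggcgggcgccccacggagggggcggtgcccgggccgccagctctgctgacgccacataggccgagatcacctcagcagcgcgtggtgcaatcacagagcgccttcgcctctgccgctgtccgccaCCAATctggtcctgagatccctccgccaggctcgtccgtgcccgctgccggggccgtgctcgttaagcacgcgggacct
Tm7sf2, chr19:6067801-6068100, minus strand: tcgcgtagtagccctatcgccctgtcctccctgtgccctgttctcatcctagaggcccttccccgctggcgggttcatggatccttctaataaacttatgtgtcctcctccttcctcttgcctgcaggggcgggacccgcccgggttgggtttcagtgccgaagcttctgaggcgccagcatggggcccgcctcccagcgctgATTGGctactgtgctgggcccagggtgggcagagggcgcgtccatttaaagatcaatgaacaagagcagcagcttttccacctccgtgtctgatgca
Fasn, chr11:120824498-120824797, minus strand: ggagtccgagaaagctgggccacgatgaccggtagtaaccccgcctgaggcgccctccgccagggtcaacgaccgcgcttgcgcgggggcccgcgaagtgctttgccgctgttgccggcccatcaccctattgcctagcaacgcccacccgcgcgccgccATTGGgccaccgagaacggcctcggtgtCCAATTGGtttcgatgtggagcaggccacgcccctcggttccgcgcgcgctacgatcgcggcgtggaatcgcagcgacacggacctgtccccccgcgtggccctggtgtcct
Elovl6, chr3:129532136-129532435, plus strand: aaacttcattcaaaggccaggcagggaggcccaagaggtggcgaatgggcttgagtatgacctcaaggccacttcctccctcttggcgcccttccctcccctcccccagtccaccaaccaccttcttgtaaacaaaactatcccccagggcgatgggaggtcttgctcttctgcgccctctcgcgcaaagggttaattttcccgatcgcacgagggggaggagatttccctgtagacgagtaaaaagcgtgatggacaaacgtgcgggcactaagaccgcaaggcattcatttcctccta
CCAAT or its complement stood in the promoters of 25 of 28 members (89.3%), 18 of 19 sterol members and 7 of 9 fatty acid members, against 42.0% of the 9968 tested genes in the table. Counted by start, it was in 26 of 38 member promoters (68.4%) and in 36.8% of 12714 promoters of tested genes. TCACNCCAC was in 1 of 28 members and in 1.35% of tested genes. Only this exact form was searched for, so a window without it may hold another form of the element. GGGCGG, the motif of the factor Sp1, was in 82.1% of members and 67.1% of tested genes, and the E-box CACGTG in 17.9% of members and 11.6% of tested genes. Both strands were searched for each motif, the Fasn matches to CCAAT that begin at -62 and -59 from the start overlap, and a match describes the letters of the window and is not a binding site.

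Values are log2(expression value + 1) as deposited, depth is unknown, and each difference is the LPS mean less the saline mean of these log2 values. Each saline table lists 3869 genes at 0, and the LPS tables list 5117 to 6223. Whether both groups were processed alike was not given in the sources used here. A difference in processing therefore cannot be told apart from treatment in the members. Lcn2, the gene named in the genotype field, had values of 13.60, 13.29 and 13.82 in LPS and 8.20, 11.28 and 10.11 in saline, so the RNA of LPS 1 and LPS 2 goes against a knockout label. Saline 2 had the highest Lcn2 value of the saline libraries, and it correlated more closely with the LPS libraries (r of 0.900 to 0.932 across 10295 genes, which are not independent replicates) than saline 1 (0.824 to 0.864) or saline 3 (0.876 to 0.905) did. The table of LPS 3 ends early, so Sqle, Tm7sf2, Srebf2, Stard4 and Srebf1 have 2 LPS values. All 34 members had a value of at least 1 before the log in every library that lists them, so none passed the filter on low values through a single group. In a bulk lung sample, fewer cells of a type and less RNA per cell cannot be told apart.

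Most genes of the fatty acid branch were lower in LPS lungs, while the sterol branch was split. Of 11 fatty acid members, 7 fell, 1 rose and 3 did not pass the test, with a median difference of -1.17. Of 23 sterol members, 5 rose, 4 fell and 14 did not pass, with a median of 0.28. Over all 13116 genes tested, 50.1% were called, 25.7% higher and 24.3% lower, and the median difference was 0.02. The count of fallen fatty acid members is thus above that share of the genome, whereas the counts of both directions in the sterol branch are near it or under it. The LPS values lay wholly below the saline values for 7 fatty acid and 4 sterol members, against 30.7% of all genes tested, and wholly above them for 1 fatty acid and 8 sterol members, against 32.7%. The test was limma with Benjamini-Hochberg adjustment over all genes tested and a threshold of 0.05.

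**Figure D1:**
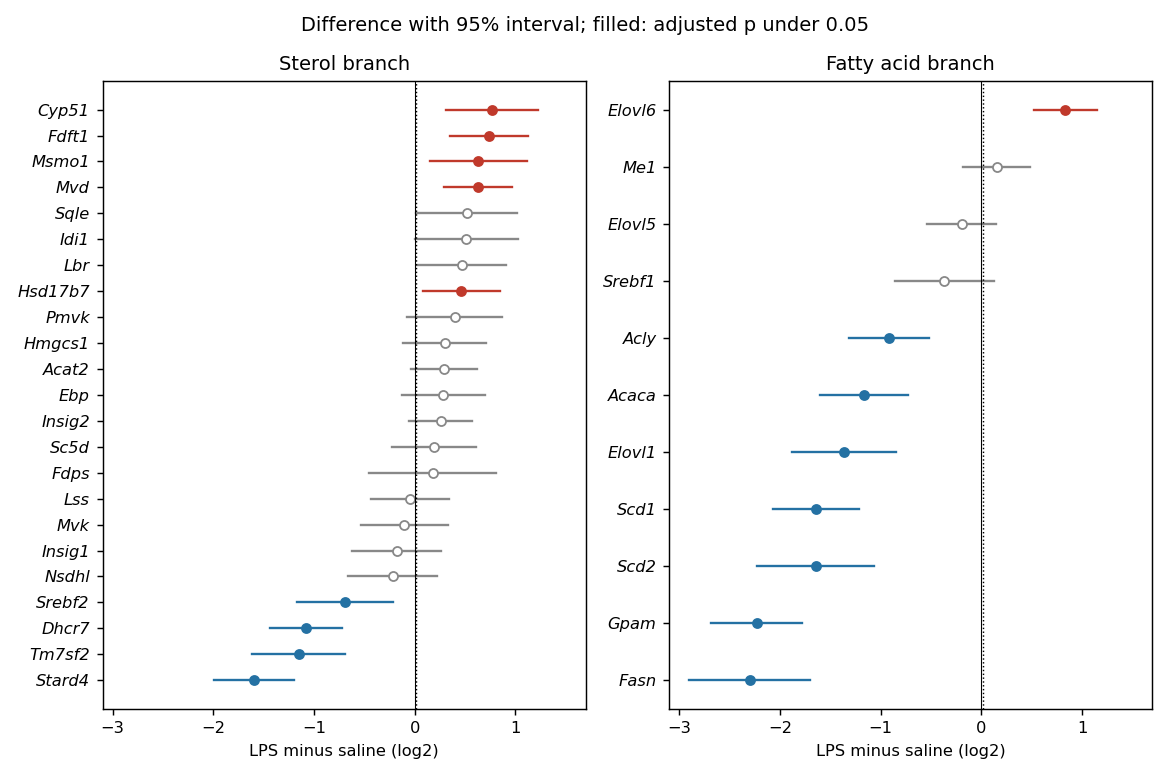
Difference between LPS and saline (log2, horizontal axis) for each sterol member (left) and fatty acid member (right), with the 95% interval as a line. Filled points passed an adjusted p of 0.05 (red higher, blue lower), open grey points did not, and the dotted line is the median of all genes tested, 0.02. Fasn and Gpam lie lowest at -2.30 and -2.23, and Cyp51 and Elovl6 lie highest in their branches at 0.77 and 0.84.

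Fatty acid synthesis proper begins with ATP citrate lyase, encoded by Acly, which makes cytosolic acetyl-CoA, followed by acetyl-CoA carboxylase (Acaca) and fatty acid synthase (Fasn). Fasn (chromosome 11, 120805846 to 120824547, mm10) had values of 2.61, 2.63 and 3.30 in LPS, against 5.31, 4.60 and 5.55 in saline. Every LPS library was below every saline library, the highest LPS value being that of LPS 3 and the lowest saline value that of saline 2. The decrease of Fasn was -2.30 (SE 0.27; limma adjusted p = 0.000276), that is 4.93-fold lower on the value + 1 scale. Acaca (chromosome 11, 84129672 to 84401651) had values of 1.96, 2.09 and 2.37 in LPS and 3.62, 2.94 and 3.36 in saline, and fell by 1.17 (SE 0.20; limma adjusted p = 0.00144). Acly (chromosome 11, 100476353 to 100528000) had values of 4.88, 4.47 and 4.97 in LPS and 5.81, 5.50 and 5.77 in saline, and fell by 0.92 (SE 0.18; limma adjusted p = 0.00285). For both genes the groups did not overlap. Me1, the malic enzyme gene that supplies NADPH for the chain, averaged 4.99 ± 0.14 in LPS and 4.84 ± 0.12 in saline (SD, n = 3 each). Its difference of 0.15 did not pass (95% interval -0.18 to 0.48; limma adjusted p = 0.415), and its sign turned with quantile normalization (-0.13) and with equal sums (-0.63).

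The stearoyl-CoA desaturase genes Scd1 and Scd2, whose products put the double bond into saturated fatty acids, lie near each other on chromosome 19. Scd1 (44394455 to 44407879) had values of 6.50, 6.76 and 7.02 in LPS and 8.57, 8.29 and 8.33 in saline. Scd2 (44293674 to 44306864) had values of 4.74, 5.27 and 5.35 in LPS and 7.11, 6.22 and 6.97 in saline. Each fell by 1.64, with SE 0.19 for Scd1 and 0.26 for Scd2 (limma adjusted p = 0.000276 and 0.00108), and in neither did the groups overlap. The level of Scd1 minus that of Scd2 within a library spanned 1.49 to 1.76 in the LPS libraries and 1.37 to 2.08 in the saline libraries, so the LPS values of this difference lay inside the saline range. The coding regions of these genes are alike, and how reads were divided between them was not given in the sources used here, so each value is uncertain to that extent.

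The elongase genes went different ways. Elovl1 (chromosome 4, 118428093 to 118432953), whose enzyme extends very long saturated chains, had values of 6.18, 6.39 and 6.30 in LPS and 7.19, 8.12 and 7.66 in saline, and fell by 1.36 (SE 0.23; limma adjusted p = 0.00151). Elovl6 (chromosome 3, 129532355 to 129638495), whose enzyme lengthens palmitate to stearate, had values of 2.56, 2.43 and 2.34 in LPS and 1.62, 1.69 and 1.51 in saline. It was the only fatty acid member to rise (0.84, SE 0.14; limma adjusted p = 0.00137). With equal sums the call was lost (0.24), and with a pseudocount of 5 the difference was 0.42. The level of Elovl1 minus that of Elovl6 within a library, which does not rest on the scaling beyond the added 1, was 3.62, 3.96 and 3.97 in LPS and 5.57, 6.43 and 6.15 in saline. Elovl5, which elongates polyunsaturated chains, averaged 6.19 ± 0.10 in LPS and 6.38 ± 0.13 in saline (SD, n = 3 each). Its difference of -0.20 did not pass as deposited (95% interval -0.54 to 0.15; limma adjusted p = 0.310), but did with quantile normalization (-0.72) and with equal sums (-0.99).

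Gpam, which encodes the mitochondrial acyltransferase that starts glycerolipid synthesis, had the second largest decrease of the members. Its values were 1.74, 1.42 and 2.16 in LPS and 4.21, 3.89 and 3.91 in saline, with every LPS value below every saline value. For Gpam (chromosome 19, 55067268 to 55127238) the difference was -2.23 (SE 0.20; limma adjusted p = 9.74e-05). Srebf1 (chromosome 11, 60199089 to 60222581), the SREBP gene most tied to fatty acid synthesis, had values of 3.62 and 3.76 in LPS 1 and LPS 2 and 4.18, 3.67 and 4.32 in saline. The saline 2 value lay between the LPS values. The difference of -0.37 did not pass (95% interval -0.86 to 0.12; limma adjusted p = 0.184). It did without saline 2 (-0.56; limma adjusted p = 0.0203) and with equal sums (-1.13; limma adjusted p = 0.00495). Leaving out LPS 3 besides saline 2 (-0.56; limma adjusted p = 0.0248) removes no further Srebf1 value, so it is not a separate check. All 7 fatty acid members that fell were also called lower under every alternative tried, among them each library left out, and the alternatives that moved a difference by over 1.5 times were a pseudocount of 5 (Gpam -1.43, Acaca -0.73) and equal sums (Acaca -1.84, Acly -1.70, Elovl1 -2.16).

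**Figure D2:**
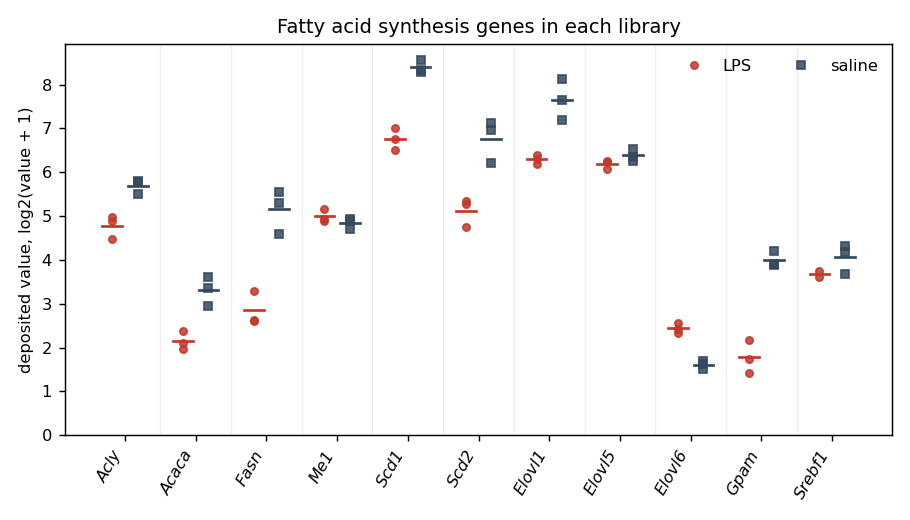
Deposited value, log2(value + 1), of the 11 fatty acid members in each library (LPS as red circles, saline as dark squares, bars at group means). The LPS points of Acly, Acaca, Fasn, Scd1, Scd2, Elovl1 and Gpam lie wholly below their saline points, those of Elovl6 lie above, and those of Me1, Elovl5 and Srebf1 overlap.

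In the sterol branch, single steps of the route rose by smaller amounts. Of the 5 mevalonate genes, Mvd, which encodes mevalonate diphosphate decarboxylase, rose and 4 did not pass, against 25.7% of all genes tested called higher. Mvd (chromosome 8, 122433601 to 122443422) had values of 3.92, 3.98 and 4.01 in LPS and 3.09, 3.49 and 3.44 in saline, a difference of 0.63 (SE 0.15; limma adjusted p = 0.00793) with no overlap. Hmgcs1, the synthase gene at the entry to the pathway, had values of 5.41, 5.56 and 5.95 in LPS and 5.15, 5.51 and 5.36 in saline, with overlap and a difference of 0.30 (95% interval -0.11 to 0.71; limma adjusted p = 0.199). Its promoter, shown above, was the only one of the 38 searched with an exact match to TCACNCCAC. The kinase genes differed by -0.10 (Mvk; 95% interval -0.54 to 0.33) and 0.40 (Pmvk; 95% interval -0.07 to 0.87). Acat2, the thiolase gene, differed by 0.29 (SE 0.15; limma adjusted p = 0.126), which passed without saline 2 (0.40; adjusted p = 0.0270). Acat3, a close copy of Acat2 that was chosen after its values were seen, had values of 4.96, 5.15 and 4.79 in LPS and 3.06, 3.57 and 3.15 in saline, and reads of these copies may not be told apart.

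Of the 5 genes between mevalonate and lanosterol, Fdft1, which encodes squalene synthase, rose and 4 did not pass, against 25.7% of all genes tested called higher. Fdft1 (chromosome 14, 63145150 to 63179578) had values of 4.56, 4.76 and 4.83 in LPS and 3.75, 4.29 and 3.91 in saline. LPS lay above saline throughout, and the difference was 0.74 (SE 0.17; limma adjusted p = 0.00698). Exons of Fdft1 share 774 bases (18.3% of its exon bases) with exons of Ctsb on the opposite strand in GENCODE M21. Ctsb, a lysosomal protease gene, had values of 7.66, 7.65 and 7.61 in LPS and 6.63, 7.27 and 6.83 in saline, a difference of 0.73, and whether reads were counted by strand was not given in the sources used here, so the value of Fdft1 is uncertain. Idi1, the isomerase gene, differed by 0.51 (95% interval 0.00 to 1.03; limma adjusted p = 0.0872), and passed without saline 2 (0.72), without LPS 1 (0.68) and without saline 2 and LPS 3 together (0.58). Sqle, the squalene epoxidase gene, had values of 4.39 and 4.91 in LPS 1 and LPS 2 and 3.87, 4.36 and 4.17 in saline. Its difference of 0.52 (SE 0.22; limma adjusted p = 0.0801) passed without LPS 1 (0.77), which leaves LPS 2 as its lone LPS value, assumed to vary like the saline values. Fdps, the farnesyl diphosphate synthase gene, spanned 5.96 to 6.60 in LPS and 5.60 to 6.72 in saline. Its difference of 0.18 turned to -0.09 without saline 1, and 26.7% of its exon bases are shared with Gm43738 on the same strand. Lss, the lanosterol synthase gene, differed by -0.05 (95% interval -0.43 to 0.34), and by 0.11 without LPS 1.

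Of the 9 genes that turn lanosterol into cholesterol, 3 rose, 2 fell and 4 did not pass, against 25.7% higher and 24.3% lower of all genes tested. Cyp51 (chromosome 5, 4081145 to 4104746), the lanosterol demethylase gene, had values of 4.17, 4.52 and 4.56 in LPS and 3.25, 3.95 and 3.74 in saline. It rose by 0.77 (SE 0.20; limma adjusted p = 0.0120) with no overlap, the highest difference of the sterol branch. Msmo1, the methyl sterol oxidase gene, had values of 5.43, 5.63 and 5.85 in LPS and 4.76, 5.46 and 4.81 in saline, so that saline 2 lay above the lowest LPS value, and rose by 0.63 (SE 0.21; limma adjusted p = 0.0339). Hsd17b7, a sterol ketone reductase gene, had values of 2.59, 2.89 and 3.13 in LPS and 2.29, 2.58 and 2.36 in saline, and rose by 0.46 (SE 0.17; limma adjusted p = 0.0467). The calls of Msmo1 and Hsd17b7 ended without saline 1 (0.51 and 0.40), without saline 3 (0.53 and 0.44), without LPS 2 (0.63 and 0.45) and without LPS 3 (0.52 and 0.34).

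Dhcr7 and Tm7sf2 fell while other genes of the same stretch rose. Dhcr7 (chromosome 7, 143823145 to 143848410), which encodes the reductase of the last step to cholesterol, had values of 1.64, 1.92 and 1.74 in LPS and 2.75, 2.70 and 3.08 in saline, and fell by 1.08 (SE 0.16; limma adjusted p = 0.000768). The level of Dhcr7 minus that of Cyp51 within a library was -2.53, -2.60 and -2.83 in LPS and -0.50, -1.26 and -0.66 in saline. Tm7sf2 (chromosome 19, 6062821 to 6068373), a sterol reductase gene, had values of 1.04 and 1.48 in LPS 1 and LPS 2 and 2.19, 2.43 and 2.60 in saline, and fell by 1.15 (SE 0.20; limma adjusted p = 0.00229). These values are low, so the log2(value + 1) scale understates the change. A pseudocount of 5 gave -0.60 for Dhcr7 and -0.54 for Tm7sf2, equal sums gave -1.72 and -1.73, and 12.1% of the exon bases of Tm7sf2 are shared with Vps51 on the same strand. Lbr, which encodes a nuclear envelope protein with the same reductase activity as Tm7sf2, had values of 5.54, 4.77 and 5.03 in LPS and 4.64, 4.57 and 4.71 in saline. Its difference of 0.47 (SE 0.20; limma adjusted p = 0.0738) passed without LPS 2 (0.64). Ebp differed by 0.28, Sc5d by 0.20 and Nsdhl by -0.22, all 3 encoding enzymes between lanosterol and the last reductions, and none passed as deposited. Ebp passed without saline 2 (0.48).

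Of the 4 genes of sterol control and transport, 2 fell and 2 did not pass, against 24.3% of all genes tested called lower. Stard4 (chromosome 18, 33199355 to 33213862), which encodes a cytosolic sterol carrier and is a known SREBP target, had values of 2.02 and 1.72 in LPS 1 and LPS 2 and 3.38, 3.61 and 3.40 in saline. The decrease was -1.60 (SE 0.17; limma adjusted p = 0.000297; -0.97 with a pseudocount of 5), the largest decrease of the sterol branch. Srebf2 (chromosome 15, 82147181 to 82205379), the SREBP gene most tied to cholesterol synthesis, had values of 4.11 and 4.09 in LPS 1 and LPS 2 and 4.80, 4.47 and 5.10 in saline. The decrease was -0.69 (SE 0.21; limma adjusted p = 0.0235; -1.47 with equal sums). The call was lost without saline 3 (-0.54) and with the replicate block (-0.54; adjusted p = 0.0917). It was also lost without LPS 1 (-0.70) or LPS 2 (-0.68), where the difference hardly moved but a lone LPS value remained, assumed to vary like the saline values. Insig1, itself a target of the SREBP factors, had values of 4.57, 4.64 and 5.26 in LPS and 5.12, 4.995 and 4.89 in saline, with LPS 3 above all saline libraries and LPS 1 and LPS 2 below them. Its difference was -0.18 (95% interval -0.62 to 0.27; limma adjusted p = 0.473). Insig2 had values of 4.24, 4.30 and 4.43 in LPS and 4.11, 4.14 and 3.94 in saline, a difference of 0.26 that did not pass (95% interval -0.05 to 0.57; limma adjusted p = 0.146) though the groups did not overlap. Groups that do not overlap were common, at 63.4% of all genes tested.

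**Figure D3:**
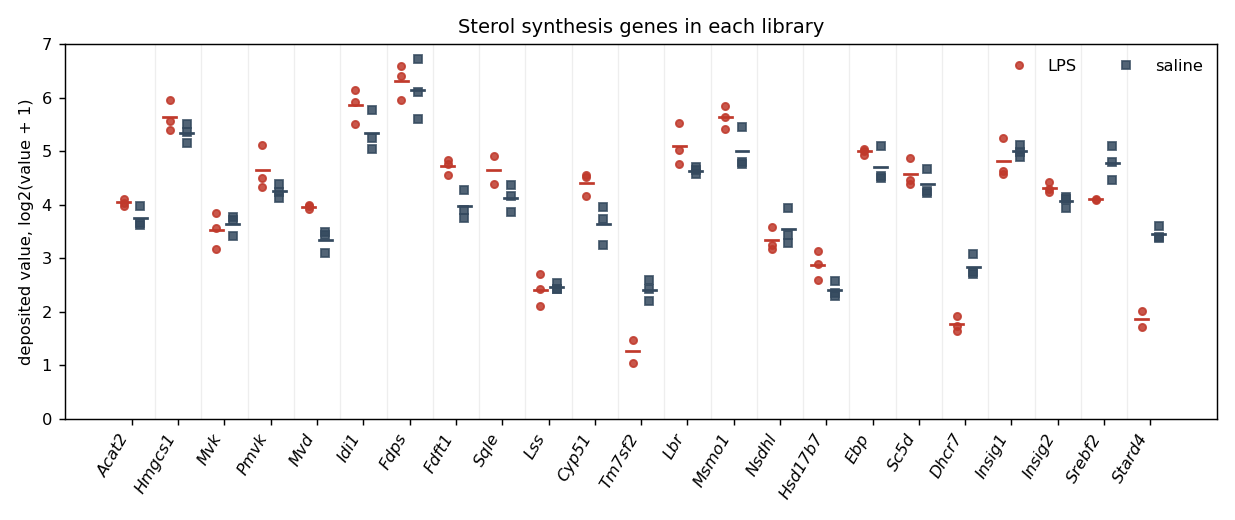
Deposited value, log2(value + 1), of the 23 sterol members in pathway order in each library (LPS as red circles, saline as dark squares, bars at group means). LPS points lie wholly below saline points for Tm7sf2, Dhcr7, Srebf2 and Stard4, wholly above them for 8 members, and overlap with them for 11.

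The sterol increases were lost under one of the other scalings and mostly held under the other. With quantile normalization, which could use 19 sterol members, 4 were called higher, namely Mvd (0.62; adjusted p = 0.0138), Fdft1 (0.60; adjusted p = 0.0258), Cyp51 (0.70) and Hsd17b7 (0.64), and Dhcr7 (-0.86) was called lower, while Msmo1 (0.30; adjusted p = 0.267) did not pass. The deposited values of LPS libraries summed to 1.25 to 1.29 times the mean of the 6 libraries, those of saline libraries to 0.68 to 0.81 times. With equal sums, meaning that each library was rescaled to 1 common total, the median of all genes tested moved to -0.68, Mvd (-0.11), Fdft1 (-0.02), Msmo1 (-0.15) and Hsd17b7 (-0.21) turned below 0 and Cyp51 was at 0.02. Limma then called 13 sterol members lower and 0 higher, 0 also at an unadjusted p under 0.05. Relative to the median of all genes, 15 of the 23 sterol members were above it and 8 below it both as deposited and with equal sums, and the branch median was 0.27 and 0.19 above it. For the fatty acid branch, 9 of 11 members were below the median of all genes in both, with a branch median -1.18 and -1.17 from it.

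**Figure D4:**
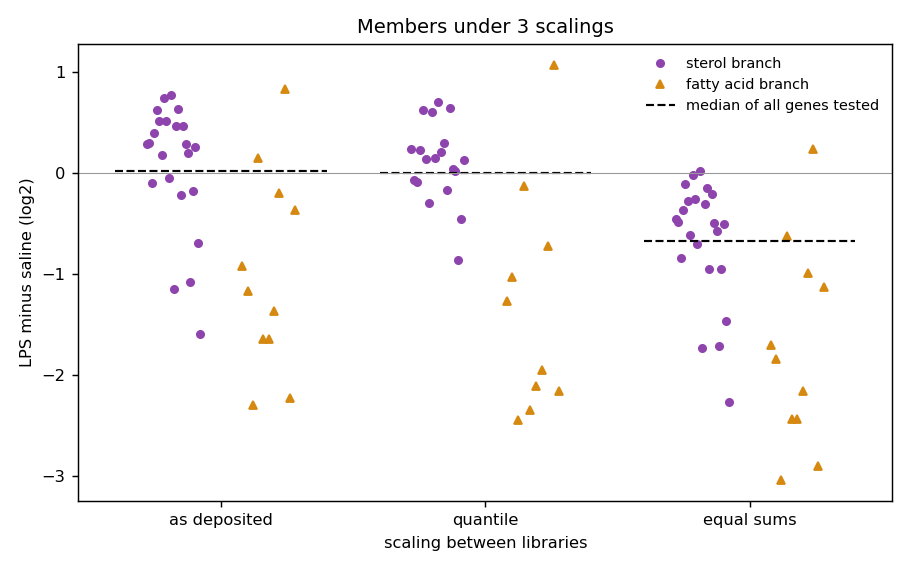
Difference between LPS and saline (log2, vertical axis) of each member under 3 scalings, with sterol members as purple circles, fatty acid members as orange triangles and the median of all genes tested as dashed lines at 0.02, 0.00 and -0.68. Members move down with the median under equal sums, while their place relative to it is similar to that as deposited. Members with no value in LPS 3 are not in the quantile column.

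Within a group, the libraries also differed in these genes. Among the saline libraries, saline 2 had the highest value for 16 of 23 sterol members (69.6%), against 38.9% of all genes tested, and the lowest for 8 of 11 fatty acid members (72.7%), against 38.4% of all genes tested. Fdps illustrates the first pattern, at 6.72 in saline 2 and 5.60 and 6.10 in the other saline libraries, and Scd2 the second, at 6.22 against 7.11 and 6.97. Among the LPS libraries, LPS 3 had the highest value for 15 of the 19 sterol members with 3 LPS values (78.9%), against 33.2% of all genes tested with 3, and LPS 1 the lowest for 15 (78.9%), against 35.9%. The fatty acid branch had the same order. Of its 10 members with 3 LPS values, LPS 3 had the highest value for 6 and LPS 1 the lowest for 7. The sterol count of increases rested on single libraries: it was 8 without saline 2, and 3 without saline 1, without saline 3 or without LPS 3. Without saline 2 and LPS 3 together, 6 sterol members were called higher and 4 lower, and 8 fatty acid members lower and 1 higher. The mean over sterol members minus the mean over fatty acid members was taken within each library. Over all 23 and 11 members, in the 5 libraries that list them (a set added after seeing the data), it was -0.15 and -0.13 in LPS 1 and LPS 2 and -1.47, -0.86 and -1.28 in saline. Over the 19 and 10 members with 6 values it was 0.03, 0.05 and 0.04 in LPS and -1.52, -0.89 and -1.33 in saline. The smaller set leaves out Tm7sf2, Srebf2 and Stard4, which are 3 of the 4 sterol members that fell, and so its sterol mean leans to the other members. Saline 2 was the saline library nearest to LPS in both.

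**Figure D5:**
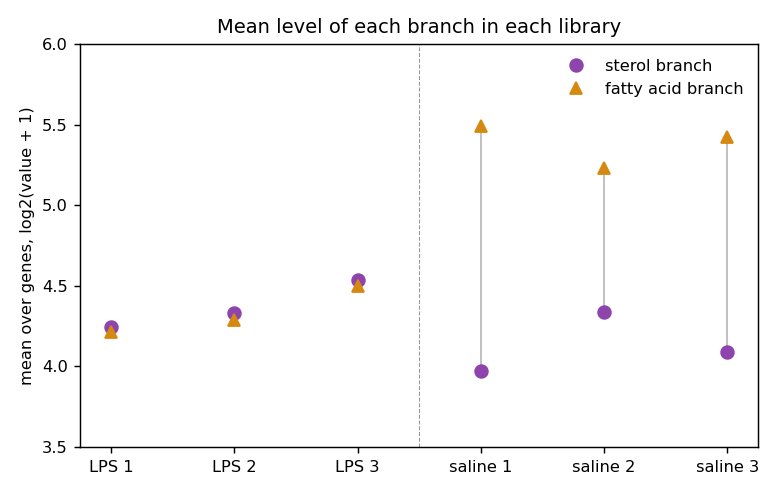
Mean deposited value, log2(value + 1), over 19 sterol members (purple circles) and 10 fatty acid members (orange triangles) with a value in all 6 libraries, for each LPS and saline library. The vertical axis begins above 0, and grey lines join the means of a library. The fatty acid mean spanned 4.21 to 4.50 in the LPS libraries and 5.23 to 5.49 in the saline libraries, and the sterol mean, which leaves out 3 of the 4 sterol members that fell, 4.24 to 4.53 in the LPS libraries and 3.97 to 4.34 in the saline libraries.

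Other genes of the pathways, taken from lists chosen by function, moved in both directions. Beside the counts of these lists, 25.7% of all genes tested were called higher and 24.3% lower. Of 10 further genes of sterol synthesis, transport and SREBP control tested, 2 rose, 2 fell and 6 did not pass (median -0.25). Nus1, which serves dolichol synthesis, had values of 5.46, 5.16 and 5.37 in LPS and 4.20, 4.28 and 4.24 in saline, and rose by 1.09 (SE 0.14; limma adjusted p = 0.000467). Npc2, a lysosomal cholesterol carrier gene, rose by 0.69 (SE 0.25; limma adjusted p = 0.0462), and its sign turned with quantile normalization (-0.10) and with equal sums (-0.11). Mbtps1, which encodes the protease that makes the first cut in SREBP precursors, fell by 0.76 (SE 0.15; limma adjusted p = 0.00313), and Npc1, whose product takes cholesterol from Npc2 protein for export from lysosomes, fell by 0.50 (SE 0.17; limma adjusted p = 0.0360). The increases numbered 1 without any single library but saline 2, and the decreases 3 without saline 2 and 1 without any other single library. With equal sums the decreases numbered 8 in this list, 8 among LXR and oxysterol genes, 14 among further fatty acid genes and 8 among oxidation genes.

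Among 11 LXR targets and oxysterol enzymes, 3 rose, 3 fell and 5 did not pass (median 0.05). Ch25h, the interferon-inducible cholesterol hydroxylase whose oxysterol product is known to hold back SREBP processing, had values of 7.93, 7.04 and 6.81 in LPS and 1.86, 3.56 and 3.43 in saline. Its increase of 4.31 (SE 0.44; limma adjusted p = 0.000163) exceeded that of every member. Cyp7b1, which breaks down such oxysterols, rose by 2.26 (SE 0.32; limma adjusted p = 0.000642). Cyp27a1, a mitochondrial sterol hydroxylase gene, fell by 1.37 (SE 0.19; limma adjusted p = 0.000604), and Mylip, an LXR target that encodes a ubiquitin ligase, fell by 0.85 (SE 0.18; limma adjusted p = 0.00459). The remaining calls, chosen after their values were seen, were the LXR genes Nr1h3 (0.52) and Nr1h2 (-0.49).

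Of 20 further genes of fatty acid synthesis and esterification tested, 8 fell, 3 rose and 9 did not pass (median -0.17). Thrsp, a lipogenic nuclear protein gene, had values of 0.65 and 0.68 in LPS 1 and LPS 2 and 4.37, 2.52 and 1.63 in saline, and fell by 2.18 (SE 0.64; limma adjusted p = 0.0213). Fads2, a desaturase gene of polyunsaturated fatty acid synthesis, had values of 2.49, 2.11 and 3.07 in LPS and 4.49, 4.71 and 4.75 in saline, and fell by 2.10 (SE 0.23; limma adjusted p = 0.000208). Its partner Fads1 fell by 1.01 (SE 0.21; limma adjusted p = 0.00407) and the mitochondrial carboxylase gene Acacb fell by 1.40 (SE 0.25; limma adjusted p = 0.00181). The 3 that rose, chosen after their values were seen, were Elovl7 (0.72), the triglyceride synthesis gene Dgat1 (0.82) and the acyltransferase gene Gpat3 (0.69), listed as Agpat9. These increases were not called with equal sums, and 5 genes rose without saline 2. Of 10 fatty acid oxidation genes tested, Acadl rose (0.77, SE 0.15; limma adjusted p = 0.00316; 0.25 with quantile normalization and -0.02 with equal sums, neither called) and 9 did not pass (median -0.14). With quantile normalization 3 of the oxidation genes were called lower. In that list 2 rose without saline 1 or saline 2, and 1 fell without saline 2 or saline 3.

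Markers of several cell types moved in the same libraries, and their part in the differences was not tested. Bulk lung RNA does not show which of these cells express the members. Beside the counts of these lists, 25.7% of all genes tested were called higher and 24.3% lower. Of 9 adipocyte markers tested 8 fell (median -2.41), and the summed value before the log over 9 listed markers with 6 values spanned 74.9 to 119 in the LPS libraries and 131 to 379 in the saline libraries. Most of the LPS sums came from Fabp4, the marker that did not pass (-0.40; limma adjusted p = 0.388). Fabp4 was at 6.34, 6.21 and 6.72 in LPS and 7.65, 6.91 and 5.91 in saline. Adiponectin (Adipoq) was at 0.06, 0.00 and 0.63 in LPS and 4.13, 3.34 and 2.76 in saline, and Plin1 at 0.04, 0.00 and 0.08 in LPS and 3.22, 2.40 and 2.19 in saline. Cfd was listed at 0 in LPS 1 and LPS 2 and was 2.95 in LPS 3, against 5.77, 6.10 and 5.03 in saline, and Car3 was 0.09, 0.09 and 0.96 in LPS and 6.08, 5.29 and 4.25 in saline. Genes listed at 0 were more numerous in the LPS tables (5117 to 6223) than in the saline tables (3869 each), by a step that was not given in the sources used here. Over 8 adipocyte markers the mean was 1.13, 1.06 and 2.001 in LPS and 4.65, 4.01 and 3.36 in saline. Saline 1, the highest of these, was also the saline library with the highest value for 7 of 11 fatty acid members (63.6%), against 33.7% of all genes tested. Saline 3, with the lowest adipocyte mean of the saline libraries, had the lowest value for 2 of 11 fatty acid members (18.2%), against 31.3% of all genes tested. Saline 2 had the lowest value for 8 of 11 (72.7%), against 38.4%. LPS 3 had the highest adipocyte mean of the LPS libraries. It was highest for 6 of 10 fatty acid members with 3 LPS values, against 33.2% of all genes tested with 3. LPS 2, with the lowest adipocyte mean, was lowest for 2 of these 10, against 32.9%, and LPS 1 for 7, against 35.9%. Whether the adipocyte and fatty acid orders are linked was not tested.

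Of 11 alveolar type 2 markers other than lipid synthesis genes, 5 fell, 1 rose and 5 did not pass (median -0.62). The summed value over the 10 of them with 6 values spanned 14800 to 16100 in LPS and 19500 to 21000 in saline. Most of each sum came from Sftpc, which did not pass (-0.39; limma adjusted p = 0.327). No marker was at 0 in any list but that of adipocytes. Sftpb (-1.60), Cxcl15 (-1.55), the transcription factor gene Etv5 (-1.39) and the lipid transporter gene Abca3 (-1.28), which loads surfactant into lamellar bodies, fell, and Sftpd (1.19, chosen after its value was seen) rose. With quantile normalization 8 of 10 were called lower and with equal sums 10 of 11, and Sftpd was not called higher under either. Of 11 neutrophil markers 9 rose (median 3.33; Il1r2 4.81, Ngp 4.45, S100a8 4.18 and S100a9 4.12), with a summed value of 9820 to 25500 in LPS and 711 to 2050 in saline. All 7 markers of monocytes and recruited macrophages rose (median 1.77; Arg1 3.90, Ms4a6d 3.30, Fcgr4 2.69 and Ly6c2 1.77), with 4 called with equal sums and with sums of 367 to 632 in LPS and 89.7 to 158 in saline. Of 8 alveolar macrophage markers 5 fell, 1 rose and 2 did not pass (Ear1 -2.14, Siglecf -1.63, Mrc1 -1.19 and Krt79 -1.07), with sums of 379 to 425 in LPS and 331 to 462 in saline. Most of each sum came from Chil3 and Ear2, which are not among the 5 that fell. The decreases of that list numbered 3 without saline 2 or LPS 1, and its increase (Chil3, 0.55, chosen after its value was seen) was lost without saline 1, saline 3, LPS 1, LPS 2 or LPS 3. Of 7 fibroblast genes 5 fell, 1 rose and 1 did not pass (Inmt -2.25, Limch1 -2.01, Col1a1 -1.87 and the lipid droplet gene Plin2 1.67). The sums, over the 6 of them with 6 values, were 628 to 742 in LPS and 1490 to 2260 in saline.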

How the data were processed

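RNA was extracted from lung with Trizol and made into libraries with a directional kit, per the labels' protocols. Reads were aligned with TopHat to mm10, per the submitters' processing notes; the counter, annotation, strand setting and scaling were not given in the sources used here. Deposited values are log2(expression value + 1), a scale read from the values themselves. Whether they are scaled by gene length is not given, so levels are not compared between genes except as differences within a library. The table of LPS 3 lists 18699 of 23183 genes.

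Genes with a value of at least 1 before the log in at least 3 libraries were kept (13116), and LPS was compared with saline with limma 3.58.1 (R 4.3.3, variance trend), with Benjamini-Hochberg adjustment and a threshold of 0.05. Depth is unknown, so no counting interval is given. Positions are from GENCODE M21.

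The members and lists were chosen with earlier results of these data known, so no p-value is adjusted over a list and no set test was run. Beyond all members, the rule for names took Lcn2 and up to 4 called genes of each list with the largest differences. Some other genes of the sterol list are not reported here.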

Additional observations from a re-analysis of the deposited data

How the results depend on the processing

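Each comparison was repeated with pseudocounts of 0.1 and 5, without a filter, keeping mean values of at least 5, with quantile normalization of genes with 6 values, with equal sums, with a replicate block, without the variance trend, at a threshold of 0.01, without each library and without saline 2 and LPS 3. Genes called numbered 6565, and 4037 at a threshold of 0.01 (2033 higher, 2004 lower). Genes called higher (3377) numbered 2204 with quantile normalization and 798 with equal sums, and genes called lower (3188) 1752 with a mean value of at least 5 and 8343 with equal sums. Sterol members called (9) numbered 5 without a filter, 5 with quantile normalization (of 19 members) and 5 at a threshold of 0.01. Those called higher (5) numbered 2 without a filter, 0 with equal sums, 2 at 0.01, and 3 to 8 without 1 library. Those called lower (4) numbered 2 with a mean value of at least 5, where Tm7sf2 and Dhcr7 were not tested, 1 with quantile normalization, where Tm7sf2, Srebf2 and Stard4 were not tested, and 13 with equal sums. The fatty acid member called higher (1) became 0 with a mean value of at least 5, where Elovl6 was not tested, and 0 with equal sums, by limma; at an unadjusted p under 0.05 these were also 0.

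Signs turned with equal sums for Acat2 (-0.46), Hmgcs1 (-0.49), Pmvk (-0.37), Mvd (-0.11), Idi1 (-0.27), Fdps (-0.61), Fdft1 (-0.024), Sqle (-0.26), Lbr (-0.31), Msmo1 (-0.15), Hsd17b7 (-0.21), Ebp (-0.49), Sc5d (-0.57), Insig2 (-0.50), Me1 (-0.63), Npc2 (-0.11) and Acadl (-0.024); with quantile normalization for Hmgcs1 (-0.074), Fdps (-0.30), Lss (0.15), Me1 (-0.13) and Npc2 (-0.10); without LPS 1 for Mvk (0.076) and Lss (0.11); and without saline 1 for Fdps (-0.091). Without 1 library, Mvk spanned -0.26 to 0.076, Lss -0.19 to 0.11 and Fdps -0.091 to 0.47. The cause was not tested. Same-numbered libraries did not deviate together (r of -0.23, -0.08 and -0.25 over 10295 genes). Deviations from a mean of 3 libraries depend on each other, so these values cannot exclude a pairing, and no label states one. With the replicate block, 2 members lost their call, Hsd17b7 (0.46; limma adjusted p = 0.0646) and Srebf2 (-0.54), and no member gained one. Depth is unknown, and 3 libraries a group limit the precision.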
